A study of Mus musculus with 6 samples.

Results

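The genes described here encode subunits of the proteasome in mouse embryonic fibroblasts, primary connective-tissue cells grown from embryos. They were chosen by name, as protein-coding genes with the symbol Psma, Psmb, Psmc, Psmd or Psme followed by a number and nothing else, without Psmb8 and Psmb9. This gave 41 genes of the 51826 in each deposited table, and 39 of them were among the 14652 genes with enough reads to be tested. Messenger RNA was sequenced from 6 cultures on a C57BL/6 background, all carrying the same passage label (P2-5). The wild-type group (Lztr1 +/+) was cultures 10, 12 and 16, and the heterozygous group (Lztr1 +/-) was cultures 11, 15 and 18. LZTR1 is an adaptor that brings RAS-family proteins to the CUL3 ubiquitin ligase, and the comparison asked which transcripts differ when 1 copy of Lztr1 is lost. The labels name no other difference between the groups, and they do not describe how the mutant allele was built. Nor do they tell whether each culture came from its own embryo, so p-values measure only the spread among these 6 cultures, which may be technical. Wherever values are set against each other, wild type comes first, in the order 10, 12 and 16, and heterozygous second, in the order 11, 15 and 18.

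The proteasome degrades proteins that carry ubiquitin chains. Its core is a barrel of alpha rings, which form the gate, around beta rings, which hold the proteolytic sites facing the inner chamber. The regulatory particle caps the barrel: its base holds a ring of ATPases that unfold the substrate, and its lid removes the ubiquitin chain. Other activators can bind the barrel in place of the regulatory particle, and an immune form carries exchanged beta subunits. CUL3 ligases mark their substrates for this machine, and cells keep the supply of its subunits balanced, in part through the transcription factor NFE2L1.

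Libraries held between 11025286 and 21885101 expected counts, and each tested member had between 152 and 9311 of these per library. Lztr1 itself had 93.9, 94.1 and 83.2 CPM (reads of a gene scaled to a common library size, here after correction for composition by TMM) against 45.9, 45.1 and 43.8 CPM, so it followed the label in all 6 (49.7% of wild type, 95% interval 44.7% to 55.3%, adjusted p = 0.00457 in edgeR). Fibroblast markers were abundant, with summed levels over 8 genes of 10929, 10918 and 9199 TPM (a share of all transcripts that takes gene length into account) against 8869, 10048 and 9504 TPM, so culture 16 was below the other wild-type cultures. Markers of other cell types were lower. Over 5 erythroid genes the sums were 148, 116 and 405 TPM against 198, 401 and 476 TPM. Macrophage markers summed to 82.0 to 139 TPM over 5 genes, epithelial markers to 87.3 to 195 TPM over 4, skeletal muscle markers to 164 to 248 TPM over 4, neural markers to 168 to 274 TPM over 4 and endothelial markers to 6.71 to 12.9 TPM over 4. Germ cell markers stayed at or under 0.49 TPM in sum, with Sycp3 at 0 in all 6 libraries. Wild-type culture 16 differed from the other wild-type cultures in the CPM of the members too, as described with the results. Y-linked genes were well above the floor in cultures 12, 15 and 18 and near it in the rest. Some values are also given inside sets that mix both genotypes, namely cultures 10 to 12, cultures 15 to 18, the earlier registered cultures (10, 12, 15 and 18) and the later pair (11 and 16). The labels call none of these a batch. In bulk RNA, fewer cells of a type and less RNA per cell cannot be told apart.

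The subunits were abundant and lay within a narrow band of levels. The 31 tested genes of the alpha ring, beta ring, base and lid ranged from 92.7 to 399 TPM as means over the 6 cultures, a 4.31-fold range with a median of 216 TPM. The median over all 14652 tested genes was 15.1 TPM. Of these 4 parts the beta ring spanned the smallest range, from 271 TPM for Psmb2 to 399 TPM for Psmb6. The alpha ring ran from 132 TPM for Psma2 to 397 TPM for Psma3, and the base from 125 TPM for Psmd1, its largest scaffold subunit, to 257 TPM for Psmd2, a scaffold that also docks ubiquitin shuttles. The lid ran from 92.7 TPM for Psmd11 to 277 TPM for Psmd8. Particles hold these subunits in fixed proportions, which the transcript levels did not mirror.

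Psmb10, the base chaperones and Psme4 lay well below every tested ring, base and lid gene. Psme1 lay just below them, while Psme2 and Psme3 reached the level of the lowest lid genes. Psmb10, the inducible immune counterpart of Psmb7, averaged 46.5 ± 5.08 TPM (SD, n = 6) against 299 ± 13.8 TPM for Psmb7, or 15.6% of it. The chaperones of base assembly stood at 43.8 TPM for Psmd9, 40.2 TPM for Psmd5 and 25.2 TPM for Psmd10. Among the activators, Psme2 and Psme1, which together form the interferon-inducible cap, averaged 107 and 89.2 TPM. Psme3, the nuclear relative of that cap, averaged 93.8 TPM, and Psme4, a large single-chain activator, 40.4 TPM.

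A pair of members was barely detected. Psma8, the testis form of the alpha subunit encoded by Psma7, had 3, 0 and 5 counts against 4, 4 and 1. Psmb11, the thymus form of a beta subunit, had 3, 2 and 2 counts in the wild-type and 6, 1 and 0 in the heterozygous cultures. A floor of 3 counts equals 0.138 to 0.275 CPM over the libraries, so at this depth neither gene can be compared between the groups. Symbols with further letters were left out by the rule: Psme2b averaged 8.96 TPM, and Psmc3ip, which encodes a recombination factor and no proteasome subunit, lay between 13.7 and 17.4 TPM.

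**Figure D1:**
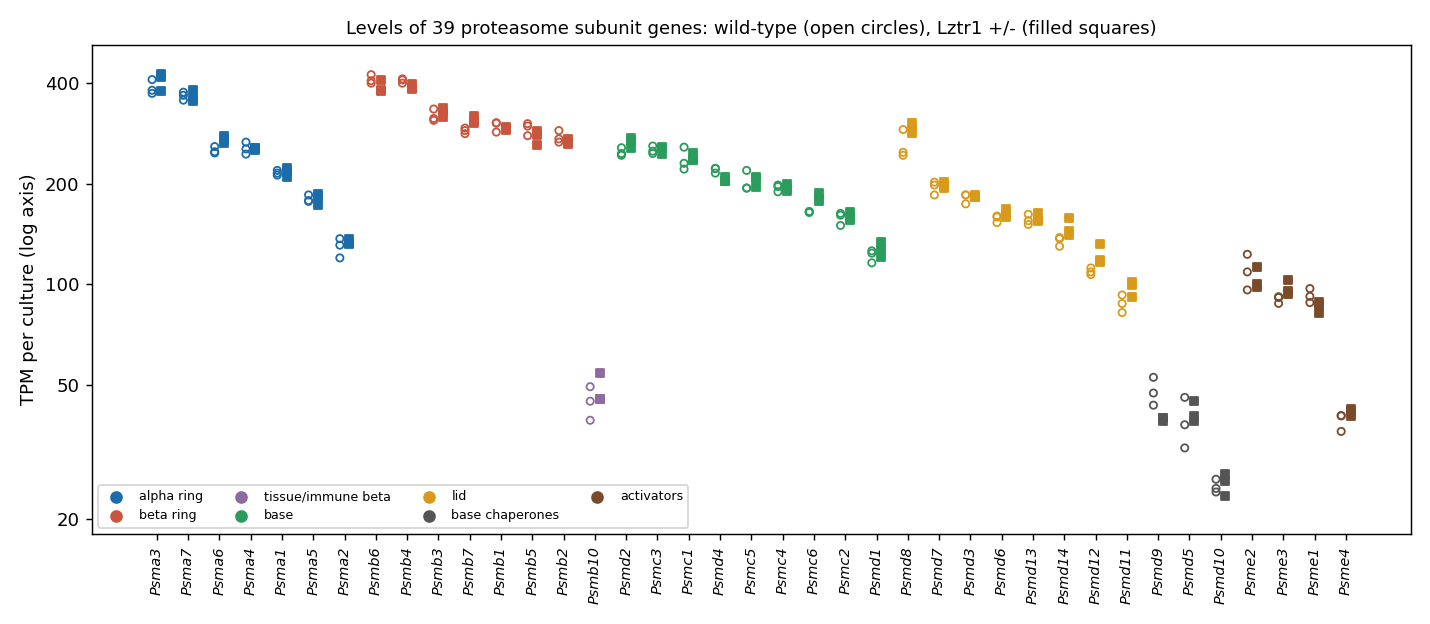
TPM of the 39 tested proteasome genes in each culture on a log axis, with wild-type cultures as open circles, heterozygous cultures as filled squares and colours for the parts of the particle. Ring, base and lid genes lie between about 92.7 and 399 TPM as means, while Psmb10, the chaperones and Psme4 lie at 46.5 TPM or less.

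Between the genotypes, no proteasome gene passed the test, and the estimates were small. By edgeR, with p-values adjusted over all 14652 genes by the Benjamini-Hochberg method, 0 of 39 members had an adjusted p under 0.05, where 1 gene of all (0.00683%), Lztr1, did. The lowest adjusted p of a member was 0.313. At an unadjusted p under 0.05 there were 3 members higher and 1 lower in heterozygous cultures, 4 of 39, beside 12.2% of all tested genes. The shares of all genes in each direction were 5.56% and 6.65%. DESeq2 also called 0 members, where it called 0.764% of all genes, and gave 3 members an unadjusted p under 0.05 (beside 8.94%). Without a filter on low counts edgeR again called 0 members (beside 0.127%). Differences between the groups ran from -0.26 (Psmd9) to 0.18 (Psmd8) on the log2 scale, with a median of 0.04 over the members and -0.0018 over all tested genes.

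The measurements bounded the difference closely. The standard error of the log2 difference had a median of 0.058 over the members against 0.11 over all tested genes. The coefficient of variation over the 6 cultures, genotypes together, had a median of 4.97% for members and 10.7% for all tested genes. It was lowest for Psmd3, a lid scaffold subunit, at 1.49% and highest for Psmd8 at 11%. For all 39 tested members the 95% interval of the difference stayed inside 1.5-fold in either direction, which held for 66.4% of tested genes. The outermost bounds were -0.41 for Psmd9 and 0.40 for Psmd8.

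**Figure D2:**
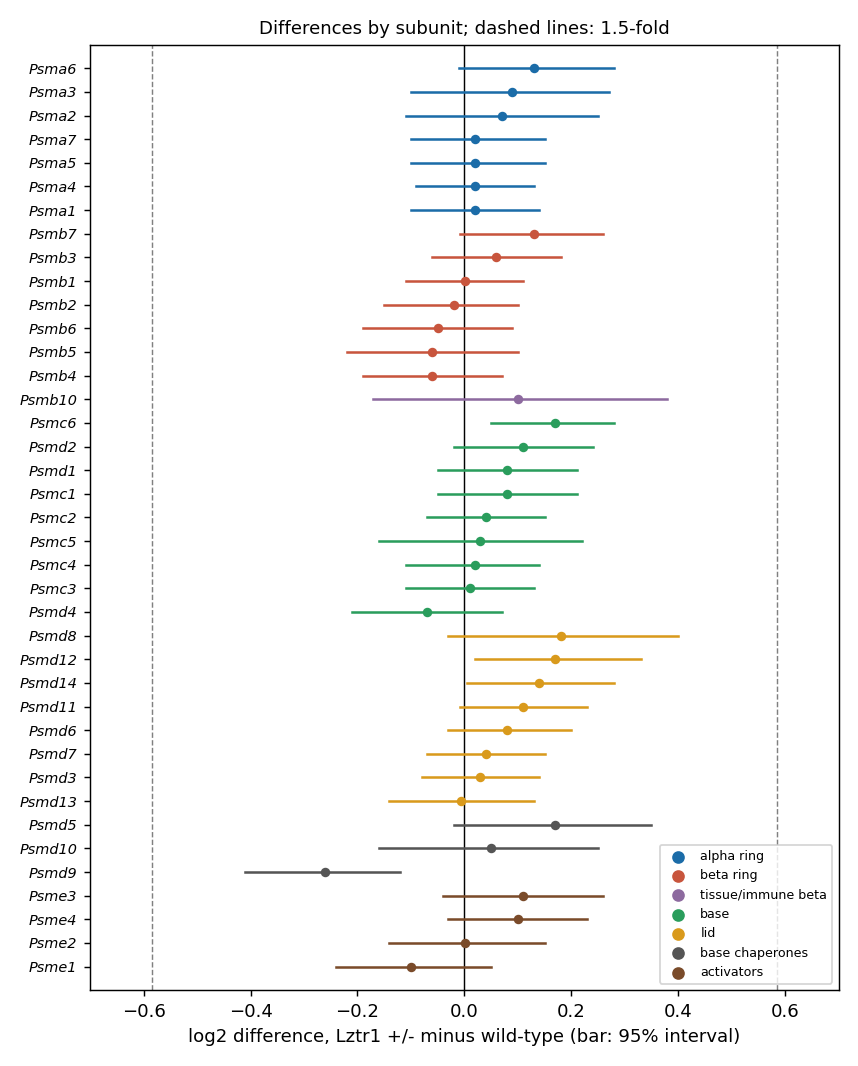
Log2 difference of heterozygous minus wild-type cultures for each tested member (points) with its 95% interval from edgeR (bars), coloured by the part of the particle, with dashed lines at 1.5-fold. All intervals lie inside the dashed lines, and the point farthest from 0 is Psmd9 at -0.26.

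Most estimates lay just above 0, and the number that did so depended on the scaling. With TMM scaling 31 of 39 members (79.5%) had an estimate above 0, beside 49.6% of all tested genes, but with scaling by library totals it was 23 of 39 (59.0%) beside 43.4%. On log2(TPM + 1) it was 28 of 39, beside 46.1%. The groups did not overlap in 9 of the 39 members (23.1%), beside 17.7% of all tested genes. In 8 members every heterozygous culture was above every wild-type culture (beside 7.75% of tested genes), namely Psmb7, Psmc6, Psmd2, Psmd3, Psmd6, Psmd11, Psmd12 and Psme4. In 1, Psmd9, every one was below (beside 9.97%). By library totals the counts were 6 above and 3 below (beside 6.05% and 12.3%), and on TPM again 6 above and 3 below (beside 7.10% and 9.29%). The 3 below were Psmb4, Psmd9 and Psme1 by library totals, and Psmb4, Psmd4 and Psmd9 on TPM. Psmb7, Psmc6 and Psmd12 were above and Psmd9 below on all 3 scales.

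In the alpha ring, all 7 tested genes had small estimates above 0, from 0.02 to 0.13. In CPM the groups were apart in none of them, but on TPM they were apart in Psma6. The highest was Psma6, at 124, 123 and 138 CPM against 136, 146 and 139 CPM (log2 difference 0.13, SE 0.063, adjusted p = 0.445 by edgeR). Wild-type culture 16 lay among the heterozygous cultures. Psma3, the most abundant member of this ring, read 183, 173 and 207 CPM against 186, 210 and 202 CPM in the same order, with culture 16 again at the upper end. Psma4 was among the steadiest, at 144, 148 and 147 CPM against 145, 153 and 148 CPM.

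The beta ring holds the subunits that cut. Psmb5, which carries the chymotrypsin-like activity, stood at 112, 116 and 128 CPM against 118, 118 and 106 CPM, and the groups overlapped (log2 difference -0.06, 95% interval -0.22 to 0.10). Psmb6, with the caspase-like activity, read 151, 139 and 152 CPM against 149, 140 and 137 CPM, also overlapping (-0.05, interval -0.19 to 0.09). Psmb7, with the trypsin-like activity, read 163, 162 and 179 CPM against 188, 183 and 179 CPM. Its groups did not overlap, but wild-type culture 16 and heterozygous culture 18 agreed to 3 digits (0.13, SE 0.059, adjusted p = 0.431 by edgeR). The noncatalytic Psmb4 was at 190, 186 and 205 CPM against 189, 189 and 180 CPM, with estimates of -0.06 for it, -0.02 for Psmb2, 0.06 for Psmb3 and 0.0011 for Psmb1. Over the ring 3 estimates were above and 4 below 0.

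Psmb10, which replaces Psmb7 in the immune form of the core, was at 17.7, 13.4 and 16.6 CPM against 16.5, 16.9 and 18 CPM. Wild-type culture 12 was the lowest and the groups overlapped. Its interval was the widest of the core, -0.17 to 0.38 around 0.10, and the estimate was 0.0048 without wild-type culture 12 and 0.20 without wild-type culture 10.

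In the base, 8 of 9 estimates were above 0. Psmc6 (ENSMUSG00000021832.7, chr14:45329788-45349705 on the plus strand in mm10), one of the ATPases that unfold substrates, was at 135, 132 and 142 CPM against 150, 155 and 155 CPM. All heterozygous cultures were higher, with a log2 difference of 0.17 (SE 0.052) and p-values of 0.0121 unadjusted and 0.321 adjusted (edgeR). The other ATPases ranged from 0.01 for Psmc3 to 0.08 for Psmc1. Psmc5 was at 131, 127 and 155 CPM against 135, 146 and 142 CPM, with wild-type culture 16 the highest of all 6. Psmd2, the scaffold that docks ubiquitin-like domains and the member with the most reads, was at 407, 416 and 427 CPM against 429, 469 and 449 CPM, and its groups were narrowly apart (0.11, SE 0.058, adjusted p = 0.481 by edgeR). Psmd4, a receptor for ubiquitin chains, had the single estimate below 0 (-0.07, interval -0.21 to 0.07). It was at 149, 140 and 158 CPM against 140, 147 and 137 CPM, with overlap. On TPM the groups of Psmd4 did not overlap.

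The lid had the highest median of the parts, at 0.10 over 8 genes, with 7 estimates above 0. In 4 lid genes all heterozygous cultures were higher (beside 7.75% of all tested genes), but by library totals this held for Psmd6, Psmd11 and Psmd12 and on TPM for Psmd12 and Psmd14. Psmd12 (ENSMUSG00000020720.13, chr11:107479484-107504362 on the plus strand), a scaffold subunit, was at 97.6, 101 and 108 CPM against 108, 115 and 123 CPM. The upper wild-type and the lower heterozygous culture nearly met (0.17, SE 0.066, unadjusted p = 0.0308, adjusted p = 0.368 by edgeR). Psmd14 (ENSMUSG00000026914.15, chr2:61711694-61800376 on the plus strand), the metalloprotease that cuts the ubiquitin chain from the substrate, was at 101, 102 and 110 CPM against 110, 116 and 120 CPM. Wild-type culture 16 and heterozygous culture 11 were level (0.14, SE 0.060, unadjusted p = 0.0434, adjusted p = 0.395 by edgeR). Psmd11, a scaffold subunit known to raise proteasome assembly when abundant, was at 105, 108 and 108 CPM against 113, 120 and 114 CPM, with no overlap (0.11, SE 0.052, adjusted p = 0.432 by edgeR).

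Psmd8, a lid subunit that joins last in lid assembly, varied most. Wild-type cultures 10 and 12 had 173 and 172 CPM but wild-type culture 16 had 218 CPM, beside 210, 210 and 219 CPM in the heterozygous group. Culture 16 thus lay with the heterozygous cultures, and over all 6 the difference was 0.18 (SE 0.094, adjusted p = 0.464 by edgeR). Some markers of cell type divided the cultures alike. Dcn, a fibroblast matrix gene, was at 159, 153 and 79.4 CPM against 84.9, 84.9 and 80.6 CPM, and the collagen gene Col3a1 at 4054, 4264 and 2777 CPM against 2982, 3120 and 2954 CPM, both chosen after their values were seen. Among the 8 fibroblast genes, Col1a1, Col1a2, Pdgfra and Vim also set culture 16 apart from cultures 10 and 12, toward the heterozygous side. Col1a1 was at 11269, 11319 and 8753 CPM against 8088, 9398 and 8844 CPM. Vim, which was higher in culture 16, was at 3093, 2894 and 3628 CPM against 3606, 3939 and 3459 CPM. Pdgfrb and Thy1 did not divide this way. Pdgfrb was at 334, 331 and 313 CPM against 293, 300 and 299 CPM. Thy1 was at 164, 138 and 164 CPM against 102, 199 and 218 CPM. Summed erythroid markers were high in culture 16 (405 TPM), near heterozygous cultures 15 and 18 but above culture 11 (198 TPM). The part of these markers in the values of Psmd8 was not tested. The other lid genes, Psmd13, Psmd7, Psmd3 and Psmd6, had estimates of -0.0057, 0.04, 0.03 and 0.08.

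The chaperones of base assembly bind the ATPases before the particle closes and then leave. Psmd9 (ENSMUSG00000029440.15, chr5:123169413-123250131 on the plus strand) was at 41.0, 41.5 and 44.0 CPM against 34.5, 35.4 and 35.6 CPM. The groups were clearly apart, and heterozygous cultures stood at 83.4% of the wild-type level (95% interval 75.5% to 92.1%). The log2 difference was -0.26 (SE 0.063) with the smallest p of any member, 0.00296 unadjusted and 0.313 adjusted by edgeR. In TPM it read 43.6, 52.8 and 47.4 against 39.2, 39.8 and 39.8. Within cultures 10 to 12 the difference was -0.26, within 15 to 18 it was -0.31, in the earlier registered set -0.22 and in the later pair -0.35. The gene body of Psmd9 overlaps those of Hpd and 2 noncoding genes on the opposite strand. Overlap of exons was not examined and no strand setting is stated, so whether reads of these genes mix is not known. Psmd5 was at 52.7, 54.3 and 62.8 CPM against 62.1, 66.9 and 61.1 CPM, with culture 16 among the heterozygous cultures (0.17, SE 0.080). Psmd10, on the X chromosome, was at 17.7, 18.9 and 19.1 CPM against 19.5, 17.9 and 20.2 CPM (0.05, SE 0.089).

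**Figure D3:**
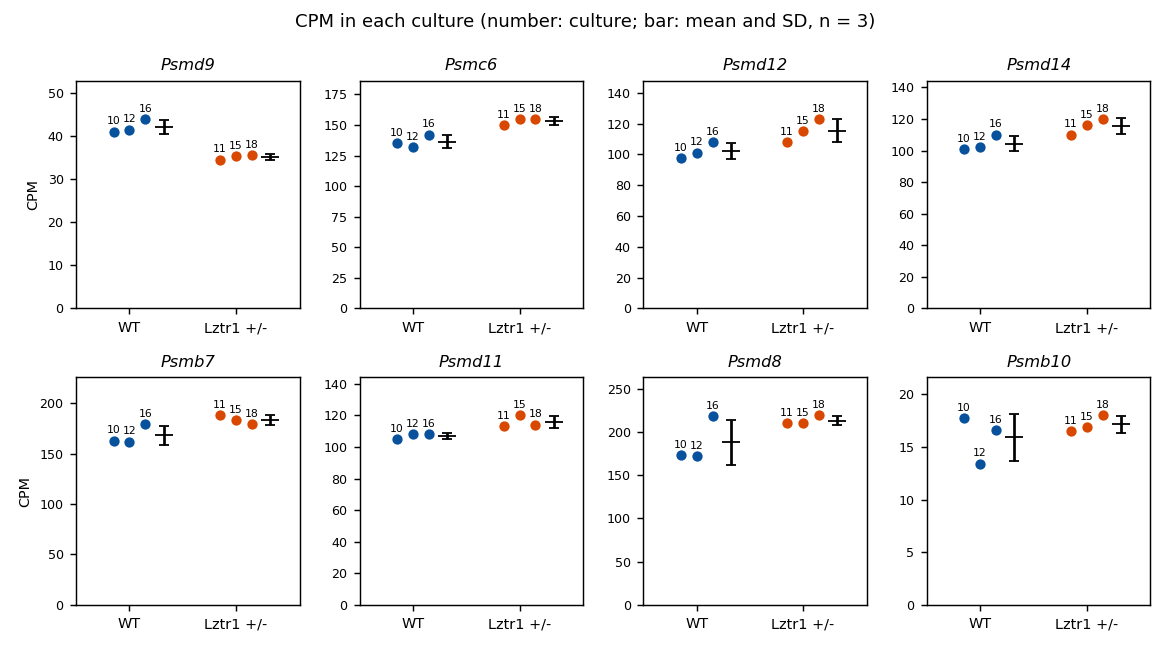
CPM of Psmd9, Psmc6, Psmd12, Psmd14, Psmb7, Psmd11, Psmd8 and Psmb10 in each culture, with the culture number beside each point and the mean and SD (n = 3) as a bar; the axes start at 0. Psmd9 is lower in all heterozygous cultures, and Psmd8 shows wild-type culture 16 at 218 CPM with the heterozygous cultures.

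Among the activators 3 estimates were above and 1 below 0. Psme1 was at 47.9, 50.3 and 50.6 CPM against 46.9, 48.1 and 43.9 CPM (log2 difference -0.10, interval -0.24 to 0.05). Its partner Psme2 was at 47.8, 44.1 and 44.5 CPM against 44.2, 45.4 and 47.1 CPM (0.0015, interval -0.14 to 0.15). In both genes of the interferon-inducible cap the groups overlapped in these values. By library totals, however, every heterozygous culture was below every wild-type culture for Psme1. Psme3 was at 128, 125 and 143 CPM against 138, 143 and 147 CPM, with culture 16 inside the heterozygous range (0.11, SE 0.065). Psme4 was at 150, 146 and 138 CPM against 150, 162 and 153 CPM, and here culture 16 was the lowest of all (0.10, SE 0.057).

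Seen by culture, deviations of the members were small, and in CPM, though not in summed TPM, wild-type culture 16 lay with the heterozygous cultures. Against the wild-type mean, the mean log2 CPM deviation of the 39 members was -0.02, -0.04 and 0.06 in wild-type cultures 10, 12 and 16 and 0.02, 0.07 and 0.05 in heterozygous cultures 11, 15 and 18. Culture 16 was above the wild-type mean in 34 of 39 members, beside 11 in culture 10 and 7 in culture 12. The heterozygous cultures were above it in 23, 31 and 29 members. The mean difference over the members came to 0.05 inside cultures 10 to 12 and -0.0029 within 15 to 18, and it was 0.09 in the earlier registered set and -0.04 in the later pair. Summed TPM over the 39 members was 7583, 7671 and 7654 in wild-type cultures 10, 12 and 16 and 7685, 7725 and 7856 in heterozygous cultures 11, 15 and 18, means of 7636 ± 46.5 and 7755 ± 89.7 (SD, n = 3 each). On that scale culture 16 lay between cultures 10 and 12, and the groups were apart only narrowly, at 7671 in culture 12 and 7685 in culture 11. Summed CPM overlapped, at 5276, 5220 and 5597 against 5471, 5679 and 5568.

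**Figure D4:**
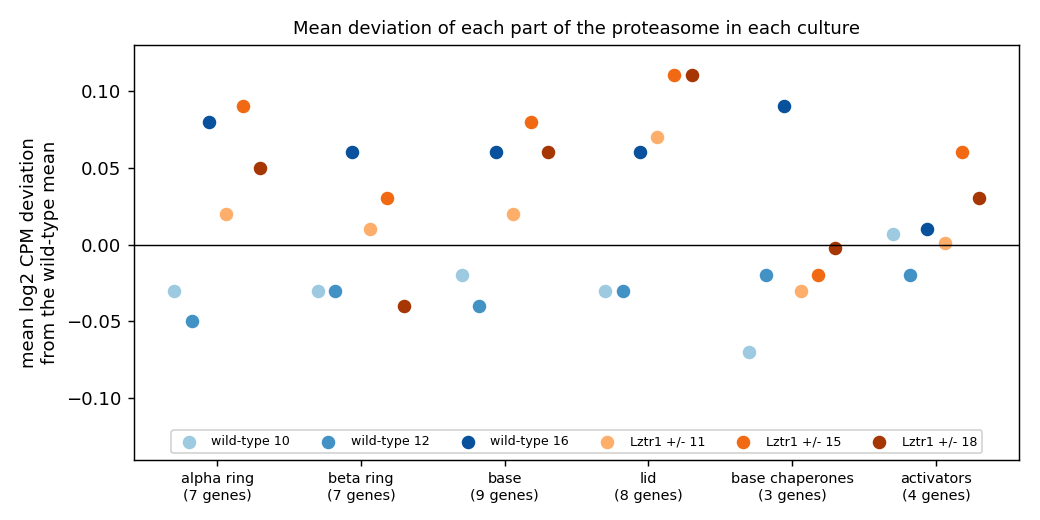
Mean log2 CPM deviation from the wild-type mean over the genes of each part of the particle, with 1 point per culture (blue for wild-type, orange for heterozygous). Wild-type culture 16 lies among or above the heterozygous cultures in the alpha ring, beta ring and base, and in the lid all heterozygous cultures lie above all wild-type cultures.

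The lid and the beta ring parted slightly, a contrast chosen after the values were seen and given without a test. Summed lid TPM was 1264, 1289 and 1292 in wild-type cultures 10, 12 and 16 and 1344, 1342 and 1400 in heterozygous cultures 11, 15 and 18, so the groups did not overlap. In summed CPM, however, they met, at 1094, 1089 and 1172 against 1170, 1201 and 1203, with culture 16 above culture 11. The beta ring summed to 2275, 2309 and 2275 TPM against 2281, 2236 and 2233 TPM, with overlap. The ratio of the lid sum to the beta ring sum in TPM, which does not depend on library scaling, was 55.6%, 55.8% and 56.8% in wild-type and 58.9%, 60.0% and 62.7% in heterozygous cultures. Wild-type culture 16 here lay with the wild-type cultures, although at their upper end.

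Leaving out wild-type culture 16 changed what was called. Without it edgeR called 2 of 39 members as higher in heterozygous cultures, Psmd8 (log2 difference 0.31, SE 0.048, adjusted p = 0.0175) and Psmc6 (0.20, SE 0.045, adjusted p = 0.0493), beside 3.69% of all tested genes in that direction. It called 0 as lower, beside 2.24%. The median over the members was then 0.07, with 33 of 39 above 0, and 15 members had an unadjusted p under 0.05, beside 23.6% of all tested genes. Psmd9 was at -0.23 with an adjusted p of 0.0719. Wild-type cultures 10 and 12, which remain in that fit, share a number run and a registration set, so there genotype cannot be fully told apart from run and set. The share of all genes called without culture 16 was 5.93%, and 49.9% of estimates were above 0. Leaving out any other single culture gave 0 members called.

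Promoter windows were searched for short elements of factor families known to act on genes of this kind. RefSeq windows from 250 bases before to 50 after the start were found for 34 of the 41 genes (37 windows, GRCm38.p6; not for Psma8, Psmb1, Psmb2, Psmb7, Psmc3, Psmd3 and Psmd7) and searched on both strands for 8 motifs, chosen with the expression results known. The ETS core CCGGAAG, bound by a factor family that includes targets of ERK, was in 13 of 37 windows (35.1%), beside 16% of windows of tested genes and 8.86% of all windows. The core TGACNNNGC of the antioxidant response element, which NFE2L1 and its relatives bind, was in 6 windows (16.2% beside 14.1% and 12.4%), and the fully specified forms TGACTCAGC and TGAGTCAGC, of which the first is also a match to the core, in 0 (beside 0.74% and 0.822%). CCAAT was in 13 (35.1% beside 37.5% and 37.4%), and the core of the interferon-stimulated response element in 4 (10.8% beside 2.98% and 3.44%), Psme1 among them. The gamma-activated sequence TTCNNNGAA was in 1 (2.7% beside 6.66% and 8.3%), the palindrome of nuclear respiratory factor 1 in 1 (2.7% beside 1.88% and 0.971%) and TATAAA in 3 (8.11% beside 7.45% and 13.6%). A match is a string of letters, not a measured binding site.

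The stretches below show the ETS core, in either orientation in capitals, in Psmc6, Psmd2 and Psmd11, whose groups did not overlap in CPM. On TPM the groups of Psmd2 and Psmd11 overlapped and those of Psmc6 did not. The core was also in windows of genes whose groups overlapped in CPM, such as Psmc1 and Psmd4. The stretches lie before the start and outside annotated exons, at chr14:45329700-45329754, chr16:20651602-20651651 and chr11:80428580-80428614, all on the plus strand.
Psmc6: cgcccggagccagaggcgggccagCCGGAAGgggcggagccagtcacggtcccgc
Psmd2: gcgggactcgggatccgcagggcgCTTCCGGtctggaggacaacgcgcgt
Psmd11: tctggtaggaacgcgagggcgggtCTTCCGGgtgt

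The next stretches carry the antioxidant response core in capitals. They are shown for Psmd9, the member with the largest difference, for Psmc6 and Psmd12, with the smallest p-values among those higher in heterozygous cultures, and for the catalytic Psmb5 and Psmb6, whose groups overlapped. They lie at chr5:123228135-123228189, chr14:45329574-45329629, chr11:107479278-107479313 and chr11:70525324-70525356 on the plus strand and, for Psmb5, at chr14:54618023-54618066 on the minus strand. The Psmd9 stretch lies before a RefSeq start but inside the GENCODE span of the gene given above.
Psmd9: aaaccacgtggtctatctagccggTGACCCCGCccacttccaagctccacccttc
Psmc6: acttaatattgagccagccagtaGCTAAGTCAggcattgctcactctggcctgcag
Psmd12: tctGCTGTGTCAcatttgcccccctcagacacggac
Psmb6: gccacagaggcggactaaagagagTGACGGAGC
Psmb5: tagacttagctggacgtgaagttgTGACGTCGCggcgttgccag

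In the surrounding pathway no gene passed the test either. Of 30 genes in 5 lists 0 passed the test in edgeR and 4 had an unadjusted p under 0.05 (beside 12.2% of all tested genes), with a median log2 difference of 0.01. Among 8 partners of the particle that the naming rule does not reach, 5 estimates were above 0. Ube3c, a ubiquitin ligase bound to the proteasome, averaged 80.5 against 89.6 CPM (0.15, SE 0.058), and Usp14, a deubiquitinase bound to the base, 127 and 145 CPM (0.19, SE 0.080). Adrm1 and Sem1, which complete the regulatory particle, differed by -0.0067 and -0.02. The assembly factors and the inhibitor gave 3 of 6 above 0, with Psmf1, the inhibitor, at 35.7 and 33.4 CPM (-0.09, SE 0.061) and Pomp, which matures the beta ring, at 92.7 and 94.6 CPM (0.03, SE 0.082).

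Genes that control proteasome supply lay slightly below 0 in 4 of 5 cases, with 95% intervals that include 0. Nfe2l1, the transcription factor, averaged 251 against 239 CPM (-0.07, SE 0.061). Ngly1, which strips its sugars, differed by -0.14 (SE 0.089), and Ddi2, the protease that activates it, by -0.03 (SE 0.062). Of 5 shuttles that carry ubiquitinated proteins to the particle, Ubqln1 was nearest to the threshold at 191 and 210 CPM (0.14, SE 0.054, adjusted p = 0.377 by edgeR). In the list for ubiquitin and its activation, the activating enzyme gene Uba6 averaged 58.2 and 69.3 CPM (0.25, SE 0.081, adjusted p = 0.327 by edgeR).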

How the data were processed

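The authors deposited 1 RSEM gene table per library, per the file headers. The submitters' processing notes name RSEM 1.3.1, DESeq2 and the build mm10. For the aligner, annotation release and strand setting, nothing was found: not given in the sources used here. Deposited expected counts are RSEM's estimated reads per gene. The deposited TPM values are its abundances per gene length and library. Symbols came from GENCODE M21 by Ensembl number (51633 of 51826 genes). Counts were whole in every library for 31 of 41 members, so the others shared reads with another gene, and the gene bodies of 19 members overlap another annotated gene. Values of such genes are uncertain to that extent.

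Expected counts were rounded, filtered with filterByExpr (14652 genes), scaled by TMM and tested over 3 against 3 libraries with edgeR 4.0.16 in R 4.3.3, without covariates, adjusted over all tested genes at 0.05. Intervals are at 95%. Deviations used log2 CPM with a prior count of 2. Alternatives used DESeq2 1.42.0, limma 3.58.1 on log2(TPM + 1) or log2(TPM + 0.1), other scalings, filters, terms and left-out cultures. Effective lengths were deposited and used in 1 of them. On simulated counts for 14652 genes edgeR recovered 46% of 1.5-fold and 88% of 2-fold changes (50 genes each), with 8 false calls. The simulation gave every gene the same biological coefficient of variation (11.3%), whereas real genes differ in spread. These shares therefore do not tell how often a change in the members would be called.

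The members, role classes, lists and naming rule were chosen with earlier results of these data known. The rule gave values for the 5 smallest unadjusted p in each direction, the catalytic and inducible beta subunits, the lid deubiquitinase, ubiquitin receptors, activators, tissue forms and the level extremes of each part, and up to 3 genes by p per pathway list. Other genes named were chosen after their values were seen. Paaf1 of the assembly list had no match and was not analysed here. Floors and intervals cover counting error or spread between cultures only. Some members of the ubiquitin list are not reported here by name.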

Additional observations from a re-analysis of the deposited data

How the results depend on the processing

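No paired analysis was possible because the groups share no culture number. For the members, the count past the test was 0 in all alternatives except without wild-type culture 16 (range over the left-out cultures 0 to 2), and their median log2 difference of 0.04 ranged from 0.02 to 0.07, a smaller move than the wild-type SD of the member mean (0.054). The number of genes past the test over all genes was 1, and it was 112 by DESeq2, 32 without a low-count filter, 0 with effective lengths as an offset, 0 on log2(TPM + 1), 0 on log2(TPM + 0.1), and 0 to 896 with 1 culture left out. Lztr1 missed the threshold with effective lengths (-0.91, adjusted p = 0.0850 by edgeR) and in limma on TPM (-0.92 with pseudocount 1 and -0.94 with 0.1), and when any culture except wild-type 16 was left out (range over all left-out cultures -1.06 to -0.97). Estimates near 0 changed sign. Psme2, at 0.0015, was -0.02 by library totals, -0.06 with effective lengths, -0.07 on both TPM scales, -0.0026 with a term for the run of culture numbers, and -0.02 to 0.05 over the left-out cultures (-0.01 without wild-type 12, -0.01 without wild-type 16 and -0.02 without heterozygous 18). Psmb5 ranged from -0.09 to 0.0025 and Psmb2 from -0.05 to 0.0062 over the left-out cultures, both above 0 without wild-type 16. The cause of these changes was not tested.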
